A study of Mus musculus with 4 samples.

Results

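The genes examined here encode enzymes that break down pyrimidines or reclaim pyrimidine nucleosides: Dpyd, Dpys, Upb1, Upp1, Tymp, Cda, Uck2 and Tk1. They were chosen by name, and 7 of the 8 had a named probe among the 15123 genes of the array. Cda, which encodes cytidine deaminase, had no named probe and was not analysed here. The values are 2-colour array ratios of spheroids against organoids grown from the small intestine of the same CD1 wild-type animal. There were 4 such pairs: 2 from fetuses of embryonic day 16 (E16), 1 from a fetus of embryonic day 18 (E18) and 1 from a newborn of postnatal day 0 (P0). Spheroids are hollow epithelial cysts and organoids are budding cultures with crypt-like domains. Both grew in Matrigel with EGF, Noggin and R-spondin1, and, per the labels, picked spheroids and picked organoids went through 3 passages before RNA was taken. The cultures were therefore selected by shape and maintained outside the animal, and each stage after E16 is represented by 1 animal.

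Pyrimidine bases and nucleosides can be discarded or reused. Dihydropyrimidine dehydrogenase (Dpyd) reduces uracil and thymine in the rate-limiting step of breakdown, dihydropyrimidinase (Dpys) opens the reduced ring, and beta-ureidopropionase (Upb1) releases beta-alanine or beta-aminoisobutyrate. Uridine phosphorylase (Upp1) and thymidine phosphorylase (Tymp) split nucleosides into base and sugar phosphate. In salvage, uridine-cytidine kinase (Uck2) and thymidine kinase (Tk1) return nucleosides to the nucleotide pool, and Tk1 is known for its rise in dividing cells around S phase. The small intestine and liver are known sites of pyrimidine breakdown.

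Each value is a log2 ratio, taken as spheroid over organoid. No label states the numerator, so a positive value means likely higher in spheroids. With the opposite sign, every direction given here would turn. Ratios carry no brightness, so a value near 0 cannot separate equal expression from no detectable signal in either culture. The means of the 94 negative control probes lay between -0.16 and 0.07, and 8612 of the 15123 genes (56.9%) had a mean in that range. Genes are not independent replicates, but as a description the Pearson correlation of the pairs over genes ran from 0.316 to 0.916, highest for the E16 pairs. In whole cultures, fewer cells of a type and less RNA per cell cannot be told apart. Of other cell types, 12 of 14 mesenchyme genes, 8 of 10 endothelial genes, 8 of 11 hepatocyte genes and 7 of 11 leukocyte genes had means in the negative control range. Over all genes 4.36% passed in limma and 20.9% had an unadjusted p under 0.05. In the same order of lists, 0, 0, 0 and 3 members passed (0, 1, 2 and 4 had an unadjusted p under 0.05). Those past the threshold were the leukocyte genes Laptm5 at 2.58 ± 0.55 (SD, n = 4), Cd14 at 2.10 ± 0.65 and Lyz2, a near-copy of Lyz1, at -1.71 ± 0.35. The 4 probes of Lyz2 disagreed, with means from -3.26 to -0.001. The leukocyte calls fell to 1 without P0, 0 without either E16 pair and 2 without E18. Of all 15123 genes, 145 passed without P0, 2 and 0 without the first and second E16 pair, and 740 without E18. The fetal liver and gut gene Afp stood at -2.43 ± 1.59 and Serpina1a at -0.75 ± 0.63, Vim at -0.45 ± 0.39, Postn at -0.21 ± 0.25, Esam at -0.27 ± 0.41 and Tek at 0.16 ± 0.095, none of which passed.

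Dpyd was about 10-fold lower in spheroids, and the other measured enzymes of breakdown did not pass the test. The Dpyd log2 ratio was -2.79 in the first E16 pair, -3.33 in the second E16 pair, -3.38 in the E18 pair and -3.87 in the P0 pair. All 4 values lay far below 0 and far outside the negative control range, and no pair stood apart. As folds, Dpyd was 6.92 and 10.1 times lower in the E16 spheroids, 10.4 times lower at E18 and 14.6 times lower at P0. The mean was -3.34 ± 0.44 (SD, n = 4), which is 10.1-fold lower with a 95% interval from 7.06-fold to 14.6-fold. Among all 15123 genes only 4 had a lower mean, and Dpyd ranked 17, 5, 12 and 12 from the bottom in the same order of pairs. In limma, with the mean of the 4 pairs set against 0, Dpyd had an adjusted p of 0.0130. Dpyd missed the threshold without either E16 pair. Its adjusted p in limma was 0.110 without the first, 0.0905 without the second and 0.0901 with both averaged to 1 sample. Of all 15123 genes, 2, 0 and 4 passed in these fits, in the same order, against 660 in the main fit. The mean ratio of Dpyd remained between -3.53 and -3.17. Without the P0 or the E18 pair the adjusted p was 0.0375 and 0.0345. The gene was read by 1 probe only.

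Dpyd lies on chromosome 3 at 118562109 to 119432924 (GRCm38.p6). The 250 bases before its RefSeq transcript start are shown because Dpyd carries the largest ratio of the set, and those before Tk1 because Tk1 had the largest stage difference. The capitals mark CCGCCC on either strand, the core of a GC box. It was found 2 times before Dpyd and 1 time before Tk1, and 32.7% of 32851 mouse promoters hold it in a window of this length. Other transcript models begin inside these windows, since the annotated gene spans start further upstream.
Dpyd, chr3:118561930-118562179, plus strand: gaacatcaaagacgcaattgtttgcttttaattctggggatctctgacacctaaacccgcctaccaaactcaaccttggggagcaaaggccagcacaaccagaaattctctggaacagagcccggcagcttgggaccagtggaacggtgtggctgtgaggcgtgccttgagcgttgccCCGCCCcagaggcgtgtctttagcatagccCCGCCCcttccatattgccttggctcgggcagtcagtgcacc
Tk1, chr11:117826015-117826264, minus strand: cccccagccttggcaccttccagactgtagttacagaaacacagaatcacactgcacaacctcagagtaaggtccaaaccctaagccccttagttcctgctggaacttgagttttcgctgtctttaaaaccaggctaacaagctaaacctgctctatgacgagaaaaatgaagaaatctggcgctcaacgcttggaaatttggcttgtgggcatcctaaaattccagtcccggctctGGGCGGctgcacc
The GC content of the windows was 56.4% for Dpyd and 49.6% for Tk1. On either strand, neither window held CCAAT (the CCAAT box, in 33.8% of promoters) or TATAAA (the TATA box, in 12.4%). Nor did they hold the E2F site spelled as TTTGGCGC (in 0.417% of promoters), as TTTCCCGC (in 0.895%) or as TTTCGCGC (in 0.256%). These matches describe letters only.

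**Figure D1:**
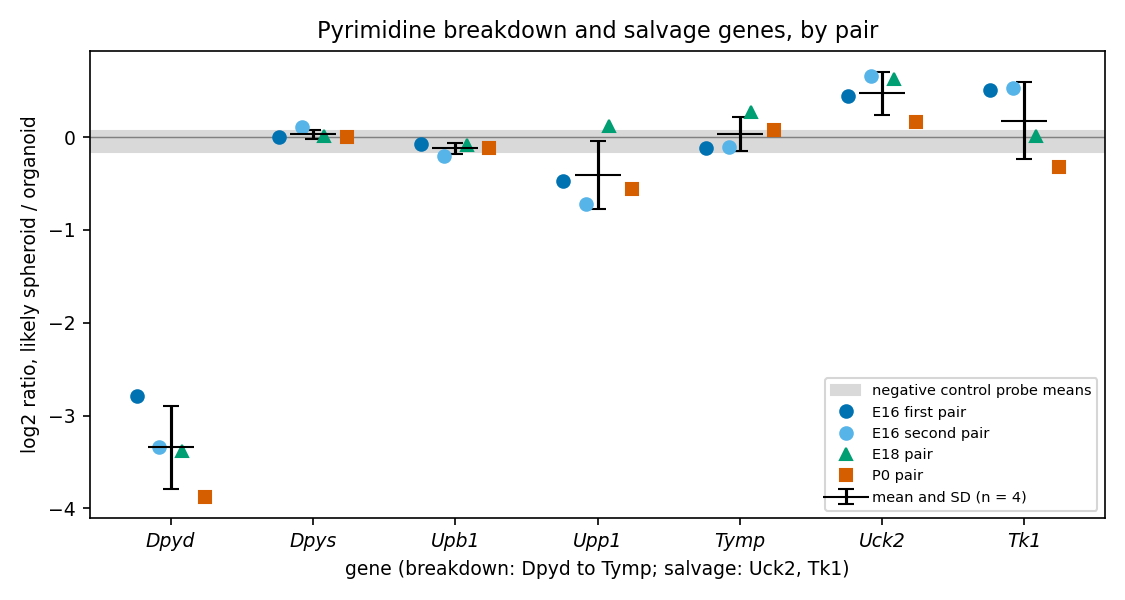
Log2 ratio (y axis, likely spheroid over organoid) of the 7 measured genes (x axis) in each pair, with the mean and SD of the 4 pairs and the range of negative control probe means in grey. Dpyd lies between -3.87 and -2.79, and the other genes lie between -0.72 and 0.66.

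Ratios of absorptive enterocyte genes also lay mostly below 0, but not in every pair. Of 17 measured, 2 (11.8%) passed lower and 0 passed higher, against 1.34% and 3.02% of all genes. The 2 were the brush border peptidase Dpp4 at -2.87 ± 0.78 (adjusted p = 0.0345 in limma) and the sodium-glucose transporter Slc5a1 at -2.40 ± 0.58 (adjusted p = 0.0288). On leaving out single pairs the count of enterocyte genes ran from 0, without either E16 pair, to 4, without E18. Of all genes, 2 and 0 passed without the first and second E16 pair, and 740 without E18. Over the same leave-outs Dpp4 had an adjusted p of up to 0.184 and Slc5a1, which also missed without P0, of up to 0.172. By pair, the enterocyte median was -2.47 and -2.71 at E16, 0.32 at E18 and -0.93 at P0. In the E18 pair 11 of the 17 were above 0 and the lowest was Dpp4 at -2.14, while Dpyd stood at -3.38. In the other 3 pairs Dpyd lay inside the enterocyte range, which ran from -3.28 to -0.13 in the first E16 pair, from -3.47 to -0.12 in the second and from -3.98 to 0.14 in the P0 pair. The part of the enterocyte genes in the Dpyd ratio was not tested further.

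**Figure D2:**
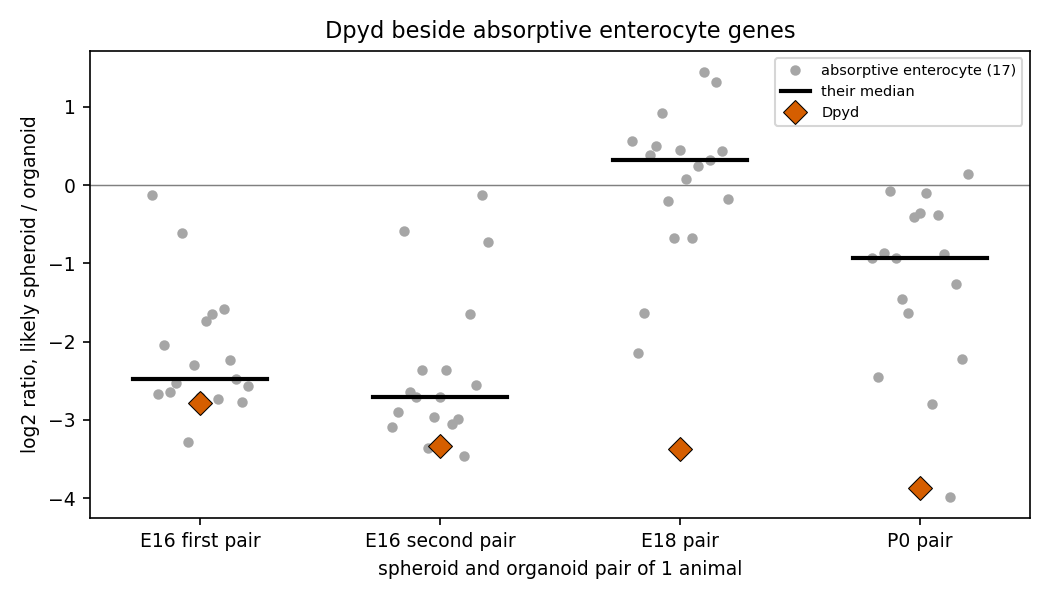
Log2 ratio (y axis) of 17 absorptive enterocyte genes (grey points, bar at the median) and of Dpyd (diamond) in each pair (x axis). In the E18 pair the enterocyte median is 0.32 and Dpyd is -3.38.

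The genes whose ratios lay nearest to those of Dpyd were ranked by root mean square difference over the 4 pairs, in log2 units. The nearest was the linker histone H1f10 at 0.62, then the defensin Defa31 at 0.63, Rgcc at 0.68, Nrn1 at 0.69 and Dpp4 at 0.71. All of these were lower in spheroids, with means from -3.62 to -2.87 and adjusted p from 0.0264 to 0.0423 in limma. Their direction and size follow from the choice of genes close to Dpyd and are no separate result. All 5 missed the threshold without either E16 pair, with adjusted p of up to 0.187 in limma, as did nearly all genes of the array. Rgcc and Nrn1 missed it whichever pair was left out. The nearest genes still differed from Dpyd by more than the SD of Dpyd among pairs, 0.44. Defensin genes have near-identical copies, so the Defa31 probe could also read its relatives.

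The steps that follow Dpyd had ratios near 0. Dpys was 0.01 and 0.11 in the E16 pairs, 0.01 in the E18 pair and -0.004 in the P0 pair. The mean was 0.03 ± 0.051 (SD, n = 4), with a 95% interval of -0.05 to 0.11 and an adjusted p of 0.687 in limma. The second E16 pair was the highest, and the mean lay inside the negative control range. Upb1 was -0.08 and -0.20 in the E16 pairs, -0.09 in the E18 pair and -0.12 in the P0 pair. It was negative in 4 of 4 pairs, with a mean of -0.12 ± 0.058 that also lay inside the negative control range, a 95% interval of -0.21 to -0.03 and an adjusted p of 0.148. The intervals of both genes exclude a change of the size seen for Dpyd, as far as their probes read signal.

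Of the nucleoside phosphorylases, Upp1 gave values that depended on the probe. Averaged over its 2 probes, Upp1 was -0.47 and -0.72 in the E16 pairs, 0.12 in the E18 pair and -0.56 in the P0 pair. It was below 0 in 3 of 4 pairs, and the mean of -0.41 ± 0.37 did not pass in limma (adjusted p = 0.264, 95% interval -0.84 to 0.03). Without the E18 pair the mean was -0.58 with an adjusted p of 0.0478. One probe ran from -0.13 to 0.01 and remained inside the negative control range. The other probe was -0.82 and -1.44 in the E16 pairs, 0.26 in the E18 pair and -1.02 in the P0 pair, with a mean of -0.75 ± 0.72. When every probe was fitted on its own, these had adjusted p of 0.483 and 0.298 in limma, so neither passed. Upp2, the related uridine phosphorylase known mainly from liver, was at 0.002 ± 0.032.

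Tymp was -0.12 and -0.11 in the E16 pairs, 0.27 in the E18 pair and 0.07 in the P0 pair. The E16 and later pairs had opposite signs, but all values other than that of E18 lay within the spread of single negative control probes (-0.359 to 0.197). The mean over pairs was 0.03 ± 0.18 (95% interval -0.19 to 0.25), inside the range of the negative control means, with an adjusted p of 0.891 in limma.

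**Figure D3:**
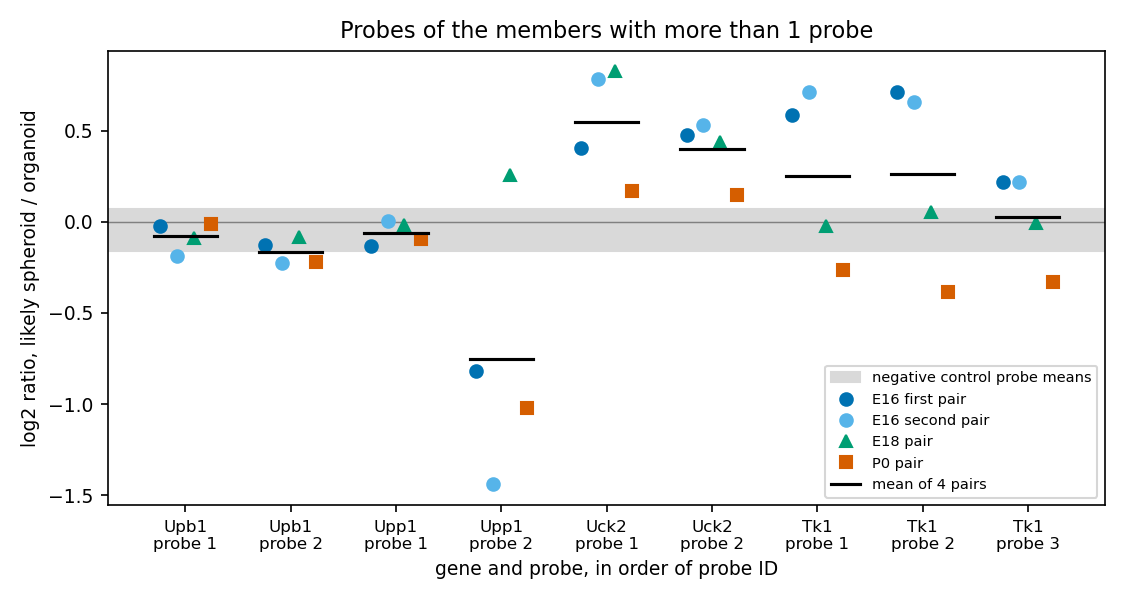
Log2 ratio (y axis) of each probe (x axis) of the 4 genes read by more than 1 probe, by pair, with the mean of the 4 pairs as a bar and the range of negative control probe means in grey. The Upp1 probes have means of -0.06 and -0.75, while the 3 Tk1 probes order the E16, E18 and P0 pairs alike.

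Uck2, the salvage kinase for uridine and cytidine, had a ratio above 0 in 4 of 4 pairs but did not pass the threshold. It was 0.44 and 0.66 in the E16 pairs, 0.63 in the E18 pair and 0.16 in the P0 pair. The P0 pair was the lowest. The mean of 0.47 ± 0.23 (SD, n = 4) is a 1.39-fold difference, with a 95% interval of 0.20 to 0.75 and an adjusted p of 0.0981 in limma. With array weights, which give the P0 and E18 pairs less influence, 1417 of all genes passed in place of 660. Uck2 was among them (0.49, adjusted p = 0.0438 in limma). Its probes had means of 0.55 ± 0.31 and 0.40 ± 0.17, both positive in 4 of 4 pairs. Uck1, the related kinase, was 0.01 ± 0.35.

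Tk1 differed in sign among the pairs. It was 0.51 and 0.53 in the E16 pairs, 0.01 in the E18 pair and -0.33 in the P0 pair. The E16 pairs were close together and above both later pairs, and only the P0 pair was clearly below 0. The mean of 0.18 ± 0.41 did not pass (95% interval -0.31 to 0.67, adjusted p = 0.671 in limma), and it ran from 0.063 to 0.35 on leaving out single pairs. Its 3 probes had means of 0.25, 0.26 and 0.03, and each was positive in both E16 pairs and lowest in the P0 pair.

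In all, 1 of the 7 measured genes passed, Dpyd, lower in spheroids. Across all genes 660 of 15123 passed (4.36%), 3.02% higher and 1.34% lower. The same sign in all 4 pairs was found for 3 of the 7 genes (Dpyd, Upb1 and Uck2) against 30.7% of all genes. The median of the 7 means was 0.03, against -0.003 over all genes. With Dpyd set aside, the means ran from -0.41 to 0.47.

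Other enzymes and carriers of pyrimidine and nucleotide metabolism showed few calls. Together with the 7 genes, 45 measured genes of 6 lists were counted, of which 2 passed lower and 0 higher, a share of 4.44%, near that of all genes. The second was Samhd1, a triphosphohydrolase that degrades deoxynucleotides, which was -1.01 and -0.96 in the E16 pairs, -0.94 in the E18 pair and -1.51 in the P0 pair. The P0 pair was lowest and the others were alike, with a mean of -1.10 ± 0.27 and an adjusted p of 0.0293 in limma. On leaving out single pairs the adjusted p ranged from 0.0335 to 0.172, and Samhd1 passed only without P0. Samhd1 was 1 of 10 measured genes of thymidylate and deoxynucleotide supply (list median -0.02), where the reductase subunit Rrm2 stood at 0.54 ± 0.44 and did not pass.

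In the other 4 lists 0 genes passed in limma, and 0 of the de novo synthesis genes, 3 of the kinases, 3 of the further breakdown genes and 1 of the transporters had an unadjusted p under 0.05. Across all genes 3157 (20.9%) had one. Among 5 genes of de novo synthesis (median 0.11), the CTP synthase Ctps stood at 0.45 ± 0.49 and Cad, whose protein carries out the opening steps, at 0.26 ± 0.63. Among 8 further salvage and nucleotide kinases (median 0.01), the mitochondrial kinase Cmpk2 stood at -0.80 ± 0.99 and the diphosphate kinase Nme1 at 0.44 ± 0.15, with adjusted p of 0.398 and 0.0560. Among 9 further genes of nucleotide and pyrimidine breakdown (median -0.13), the nucleotidase Nt5c2 stood at 0.76 ± 0.37. Aldh6a1, which acts at the end of thymine and valine breakdown, stood at -0.65 ± 0.32. Both had the same sign in 4 of 4 pairs, with adjusted p of 0.0964 and 0.0971. Among 6 nucleoside transporters (median -0.07), the sodium-coupled Slc28a2 stood at -0.64 ± 0.45 and the equilibrative Slc29a1 at -0.34 ± 0.31.

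The second comparison set the 2 E16 pairs against the pairs of later stages, E18 and P0. In limma 0 of 15123 genes passed (0%), while 2883 (19.1%) had an unadjusted p under 0.05. Tk1 had the largest difference among the 7 genes, with a mean of 0.52 at E16 against -0.16 later. The difference was 0.68 (95% interval 0.26 to 1.10, adjusted p = 0.146 in limma). On leaving out single pairs the difference ran from 0.51, without P0, to 0.84, without E18. Each such fit leaves 1 sample on a side, assumed to vary like the other pairs, so only the size is given for Tk1. Tymp had a lower ratio at E16, -0.11 against 0.17 later, a difference of -0.29 (95% interval -0.56 to -0.01, adjusted p = 0.253 in limma). Across all genes 2536 (16.8%) had E16 pairs of one sign and later pairs of the other, as Tymp did.

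For Dpyd the mean was -3.06 at E16 and -3.62 later, a difference of 0.56 (95% interval -0.32 to 1.44, adjusted p = 0.444 in limma). Uck2 stood at 0.55 against 0.39 (adjusted p = 0.810) and Upp1 at -0.60 against -0.22 (adjusted p = 0.618). Upb1 and Dpys differed by -0.04 and 0.05 between stages, with adjusted p of 0.859 and 0.770.

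Genes of S phase, like Tk1, had higher ratios in the E16 pairs than in the later pairs. Of 18 measured, all 18 had a higher ratio at E16 than later, with a median difference of 0.91, against 7403 of 15123 genes (49%) and a median difference of -0.002. The S phase median was 0.36 and 0.52 in the E16 pairs, -0.68 in the E18 pair and -0.29 in the P0 pair. Of the 18 genes, 17 had an unadjusted p under 0.05 in limma, against 19.1% of all genes, and 0 passed, with adjusted p from 0.0915 to 0.321. The 18 genes were read in the same 2 pairs a side and are not separate results. Tk1 was near this median in 3 pairs and above it in the E18 pair, at 0.01, where 2 of the 18 genes were positive. Top2a, the topoisomerase of dividing cells, had a mean of -0.39 ± 0.76, and the replicative polymerase subunit Pold1 one of -0.56 ± 0.88. Uck2 was positive in the E18 and P0 pairs, where most S phase genes were negative. The part of S phase genes in the Tk1 ratio was not tested.

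**Figure D4:**
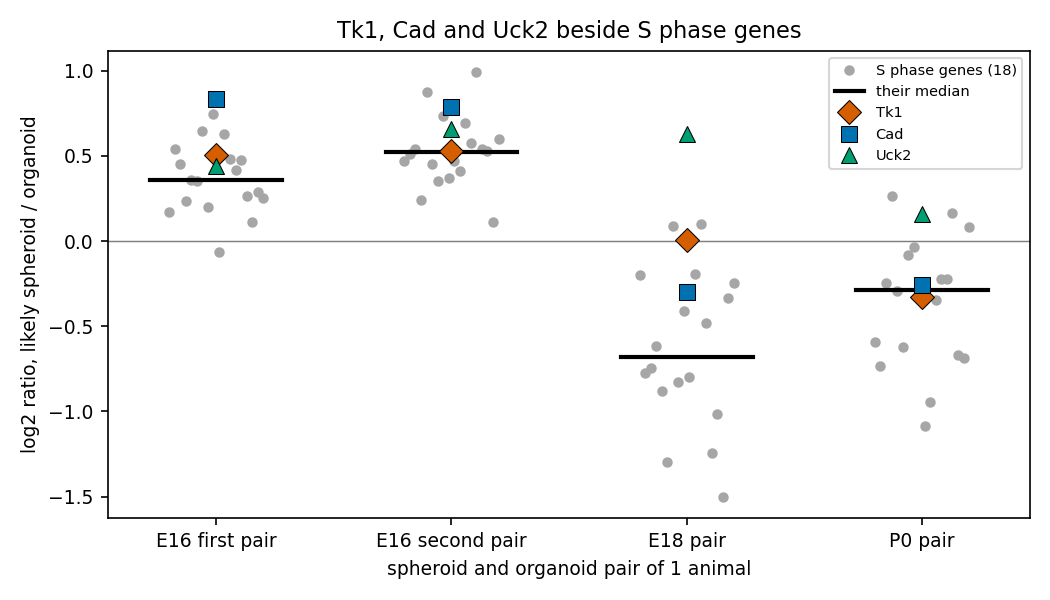
Log2 ratio (y axis) of 18 S phase genes (grey points, bar at the median) in each pair (x axis), with Tk1, Cad and Uck2. Tk1 and Cad are above 0 in both E16 pairs, and Uck2 is above 0 in all 4 pairs.

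The list of thymidylate and deoxynucleotide supply had higher ratios at E16 as well, in all 10 genes (median difference 0.56). It includes Samhd1, which degrades deoxynucleotides and stood at -0.98 at E16 and -1.23 later. Of 5 genes of de novo synthesis, 4 had a higher ratio at E16 (median difference 0.63). Cad was 0.83 and 0.78 in the E16 pairs, -0.30 in the E18 pair and -0.26 in the P0 pair, a difference of 1.09 (adjusted p = 0.0834 in limma). Of the 9 further breakdown genes 3 had a higher ratio at E16 (median difference -0.37), as did 4 of the 8 salvage and nucleotide kinases (0.08) and 5 of the 6 transporters (0.29). Of all 45 genes, 21 (46.7%) had an unadjusted p under 0.05, against 19.1% of all genes, and 0 passed after adjustment.

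**Figure D5:**
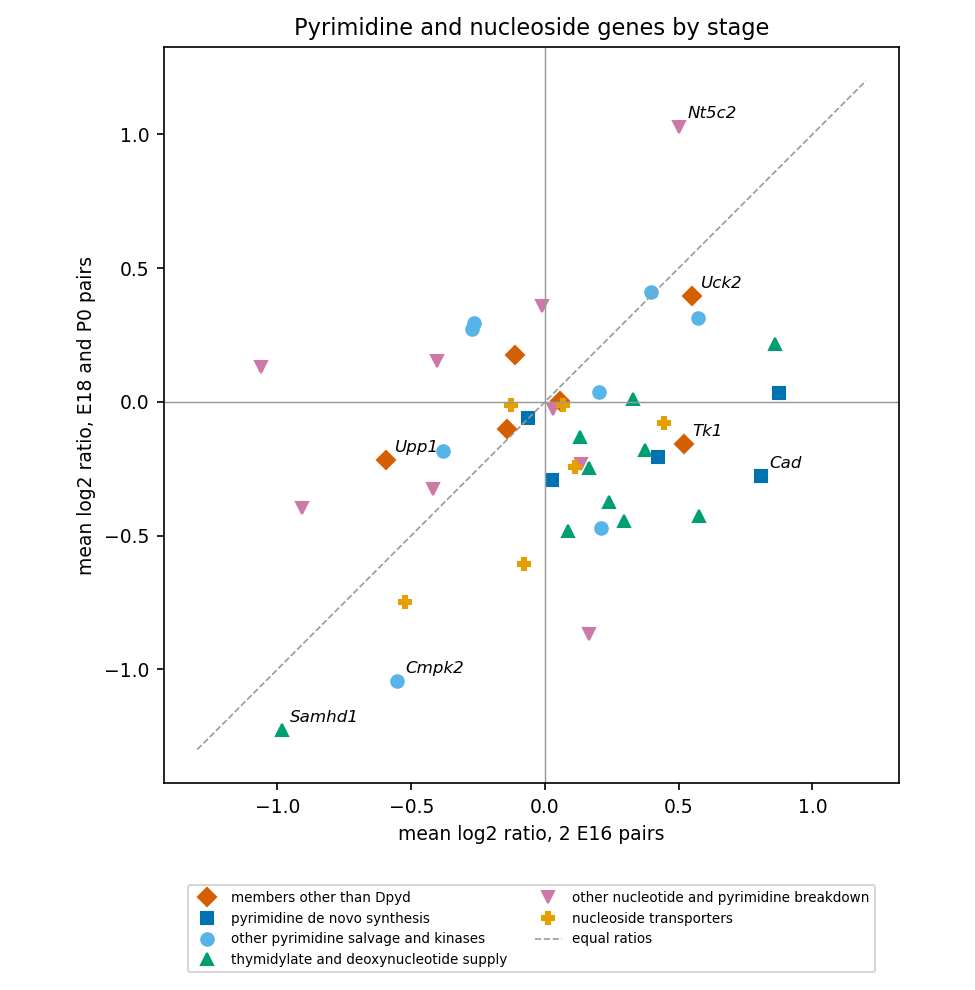
Mean log2 ratio of the 2 E16 pairs (x axis) against that of the E18 and P0 pairs (y axis) for the measured genes of 6 pyrimidine and nucleoside lists, without Dpyd, which lies off the scale at -3.06 and -3.62. Tk1 and Cad lie right of the dashed line of equal ratios, with positive E16 means and negative later means.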

How the data were processed

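The values analysed are the authors' deposited log2 ratios from arrays of 70-base oligonucleotides, with 38083 probes and 1 value for each animal. Dyes were swapped, per the series' design text. Not given in the sources used here: how dye orientations were combined, background correction, normalization, filters, the log base and the numerator. Base 2 was taken because values above 7 exceed what log10 ratios of a 16-bit scanner can reach, and the direction from the titles, which name spheroids before organoids. Column medians were -0.001, -0.004, -0.0055 and -0.003 for the P0, E16 and E18 pairs.

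Probes were named through the platform annotation: 22941 had 1 gene, 0 several and 15142 none. Symbols were updated by gene ID (all 22941 matched, RefSeq GRCm38.p6). The 22305 named probes with an mM prefix were averaged to 15123 genes. The ratio within an animal is the unit, and limma 3.58.1 in R 4.3.3 set the mean of 4 pairs against 0, and E16 against later pairs, adjusted by Benjamini-Hochberg over the 15123 genes (threshold 0.05). Intervals come from the moderated fit. The fits were tested on simulated data. The labels say that each pair came from 1 animal. Only 4 pairs limit the precision.

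Members and 14 gene lists were chosen with earlier results of these data known. Named genes are the members, genes of the 6 pyrimidine and nucleoside lists past the threshold, the 2 largest means of each list and the 5 genes nearest to a member with a mean of at least 1 in size; others (Lyz2, Uck1, Upp2) were named after their values were seen. Promoter sequences are from RefSeq (GRCm38.p6) and matched 7 of 8 members. Alternatives were array weights, column scaling, re-centring, a robust prior, 1 probe per gene, E16 pairs averaged, control prefixes included, other thresholds and leaving out each pair. Fits of single probes were added after seeing the data.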

Additional observations from a re-analysis of the deposited data

Results flagged for a closer look

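Of 40 named genes screened, 3 had a pair far from the other pairs of its group by Dixon's criterion at 95%. Chance flags about 5% of groups of 4. Dpys was 0.1065 in the second E16 pair and between -0.004 and 0.01 in the others, all within the spread of single negative control probes (-0.359 to 0.197). Samhd1 was -1.51 in the P0 pair, and H1f10, the gene nearest to Dpyd, was -4.43 in the P0 pair.

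In 5 of these genes both E16 pairs had one sign and both later pairs the other, as in 16.8% of all genes. The difference of E16 minus later was -0.285 for Tymp, 1.09 for Cad, 1.25 for Top2a, -0.558 for Uck1 and 0.0544 for Upp2. In limma their adjusted p were 0.253, 0.0834, 0.138, 0.175 and 0.674, so none of the 5 passed.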

How the results depend on the processing

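The ratio of Dpyd kept its sign in every alternative fit and passed at 0.05 in all but 3. With the E16 pairs averaged to 1 sample it was -3.44 (adjusted p = 0.0901 in limma). On leaving out single pairs it ranged from -3.53 to -3.17, missing the threshold without either E16 pair. At a threshold of 0.01, Dpyd missed in the main fit as well (adjusted p = 0.0130 in limma). Leaving out a pair moved the Upp1 mean from -0.58 (without E18, where it passed) to -0.30. The Tk1 mean moved from 0.063 (without the second E16 pair) to 0.35 (without P0). The Dpys mean moved from 0.0043 (without the second E16 pair) to 0.041 and the Tymp mean from -0.051 (without E18) to 0.080. For E16 minus later, Tk1 moved from 0.51 (without P0) to 0.84 (without E18). In that comparison Dpyd moved from 0.29 (without the first E16 pair) to 0.83 (without the second). Upp1 moved from -0.72 (without P0) to -0.038 (without E18) and Tymp from -0.39 (without P0) to -0.18 (without E18). Dpys moved from 0.0032 to 0.10 (without the second and the first E16 pair). Uck2 moved from -0.082 (without P0) to 0.39 (without E18) and Upb1 from -0.10 to 0.024 (without the second E16 pair). With array weights Uck2 passed at 0.49, Tymp turned to -0.042, 1417 genes passed in place of 660, and 8 of the 45 pyrimidine and nucleoside genes in place of 2. Uck1 turned to -0.1294 with array weights and ran from -0.132 to 0.1145 on leaving out single pairs, and Upp2 turned to -0.0073 with E16 pairs averaged and ran from -0.0096 to 0.0113. With E16 pairs averaged, 4 genes passed and 0 of the 45. Leaving out single pairs gave 0 to 740 genes (145 without P0, 740 without E18, 2 when the first E16 pair was left out and 0 when the second was) and 0 to 2 of the 45. The stage comparison gave 0 to 1544 genes (1544 without P0, 443 without E18). At an adjusted p under 0.01 or 0.10, or with at least 1 log2 unit as well, 25, 1381 and 256 genes passed. The cause was not tested, except that fewer samples were fitted where pairs were left out or averaged. The other 179 values computed for the members and counts had the same sign and side of the threshold, or a similar count. Each ratio is already within an animal, so setting the mean of the pairs against 0 is itself a paired analysis. The arrays' signal over background is unknown, which limits what a ratio near 0 can show.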

Other observations

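Purine enzymes and the relatives of Dpys were counted in the same way. Of 11 measured genes of purine breakdown and salvage (median 0.02), 1 passed, adenine phosphoribosyltransferase (Aprt), which was 0.61 and 0.59 in the E16 pairs, 0.96 in the E18 pair and 0.73 in the P0 pair. Its mean was 0.72 ± 0.17 (SD, n = 4), higher in spheroids in 4 of 4 pairs, with an adjusted p of 0.0289 in limma. When single pairs were left out, Aprt passed only without E18 (adjusted p from 0.0320 to 0.163 in limma). The 1 call is 9.09% of this list, while 4.36% of all genes passed and 3.02% passed higher in spheroids. Xanthine dehydrogenase (Xdh), which makes uric acid, was -0.91 and -1.81 in the E16 pairs, 0.08 in the E18 pair and -1.73 in the P0 pair, with a mean of -1.09 ± 0.88 that did not pass (adjusted p = 0.221). Like Upp1, it was below 0 in all pairs but that of E18. All 5 genes of the Dpys-like family had means inside the negative control range, as did 8612 of all 15123 genes. Among them Crmp1 stood at -0.05 ± 0.048 and Dpysl2 at 0.05 ± 0.041. Of the 5, 0 passed in limma (0 also at an unadjusted p under 0.05).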
